A study of Mus musculus with 6 samples.

Results

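The transcripts described here encode 10 enzymes and carriers that remove peroxides and superoxide: the peroxiredoxins Prdx1 to Prdx6, the glutathione peroxidases Gpx1 and Gpx4, the superoxide dismutase Sod1 and the thioredoxin Txn1. They were taken by gene symbol from the 48587 genes of a read count table, and all 10 were found and passed the filter on low counts that left 10394 genes for testing. The samples were microglia, the resident macrophages of the brain, sorted by FACS at about 1000 cells each from C57BL/6 mice at postnatal day 42. Wild-type mice gave 3 samples and mice lacking Lyl1, a transcription factor of the bHLH class known from haematopoiesis, gave 3 samples labelled Lyl1 KO. The labels list no treatment for either group. Nothing in the labels says whether a sample is 1 animal or a pool, which cells lack Lyl1 or how the allele was made. The p-values below therefore rest on spread among samples that may be technical repeats.

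Aerobic metabolism and the NADPH oxidase of macrophages produce superoxide, which superoxide dismutases turn into hydrogen peroxide. Peroxiredoxins reduce hydrogen peroxide through a reactive cysteine and are recharged by thioredoxin, which thioredoxin reductase keeps reduced with NADPH. Glutathione peroxidases do the same work with glutathione and carry selenocysteine at their active site. Prdx1 and Prdx2 act mainly in the cytosol, Prdx3 in mitochondria and Prdx4 in the endoplasmic reticulum. Prdx5 is found in several compartments, and Prdx6 uses a single catalytic cysteine and also has phospholipase activity.

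The coding sequences of the 4 typical peroxiredoxins are printed around the codon of the cysteine that attacks the peroxide, because this site makes them a family and because their resemblance bears on how reads are assigned. The stretches come from GENCODE M21 transcripts, 5′ to 3′, with that cysteine codon in capitals.
Prdx1: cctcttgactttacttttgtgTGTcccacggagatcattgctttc
Prdx2: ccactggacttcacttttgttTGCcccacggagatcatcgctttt
Prdx3: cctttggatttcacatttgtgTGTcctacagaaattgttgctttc
Prdx4: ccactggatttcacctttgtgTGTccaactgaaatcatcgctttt
The capitals are codon 52 of Prdx1, codon 51 of Prdx2, codon 109 of Prdx3 and codon 127 of Prdx4. Of the 45 bases shown, Prdx1 and Prdx4 each differ from Prdx2 at 7 and Prdx3 differs at 13. Over the aligned coding sequences, Prdx1 and Prdx2 were identical at 69.9% of 594 bases. No stretch of 50 bases, the read length, occurred in transcripts of more than 1 of the 10 genes.

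The glutathione peroxidases are printed for their selenocysteine codon, an in-frame TGA that elsewhere would end translation, shown in capitals.
Gpx1: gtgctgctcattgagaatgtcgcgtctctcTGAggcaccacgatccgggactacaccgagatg
Gpx4: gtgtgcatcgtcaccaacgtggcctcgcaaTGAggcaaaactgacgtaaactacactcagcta
The TGA is codon 47 of Gpx1 and codon 73 of Gpx4. The other 8 members had no stop codon inside the coding sequence.

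Total counts ran from 12753945 to 27378614 per sample and 12827 to 15652 genes had a read. The microglia marker P2ry12 was high in every sample, between 6468 and 8910 CPM (reads scaled to library size, with TMM factors between libraries). The targeted gene Lyl1 measured 60.2, 55.6 and 40.0 CPM in wild-type samples 1 to 3 against 9.03, 12.0 and 14.3 CPM in the knockout samples, so the genotypes did not overlap. Xist, which is transcribed from the inactive X chromosome of female cells, reached 349 and 412 CPM in knockout libraries 1 and 3 and no more than 1.41 CPM in the other 4 libraries. Knockout sample 2 is thus the only knockout sample that resembles the wild type in Xist, and sex and genotype cannot be fully told apart. The part of sex in the differences below was not tested.

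None of the 10 genes passed the test of knockout against wild type. With edgeR's quasi-likelihood test and Benjamini-Hochberg adjustment over all 10394 genes, every member had adjusted p = 0.9999. Of all tested genes 0% were called. In simulated data that scattered like these samples, the test detected only 4 out of 66 genes with a true 8-fold difference. The lack of called genes thus says little about whether a gene differed. Prdx2 and Sod1 lay lower in each knockout sample than in any wild-type sample, by 2.78-fold and 2.40-fold of the means, and Prdx6 lay higher in each. The other 7 members overlapped between genotypes. In all tested genes 5.19% had every knockout sample below wild type and 5.97% every knockout sample above it, against 2 and 1 of the 10 members. An unadjusted edgeR p under 0.05 was reached by Prdx2 alone, on the lower side, and by 2.84% of all tested genes (1.67% lower and 1.16% higher). The median log2 fold change (knockout over wild type) of the 10 genes was -0.26, with 8 negative and 2 positive values, beside -0.03 over all tested genes. With upper-quartile or library-size scaling the split was 6 negative and 4 positive, through Prdx5 and Txn1. In bulk RNA, a change in the share of cells that express a gene and a change in RNA per cell cannot be told apart.

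**Figure D1:**
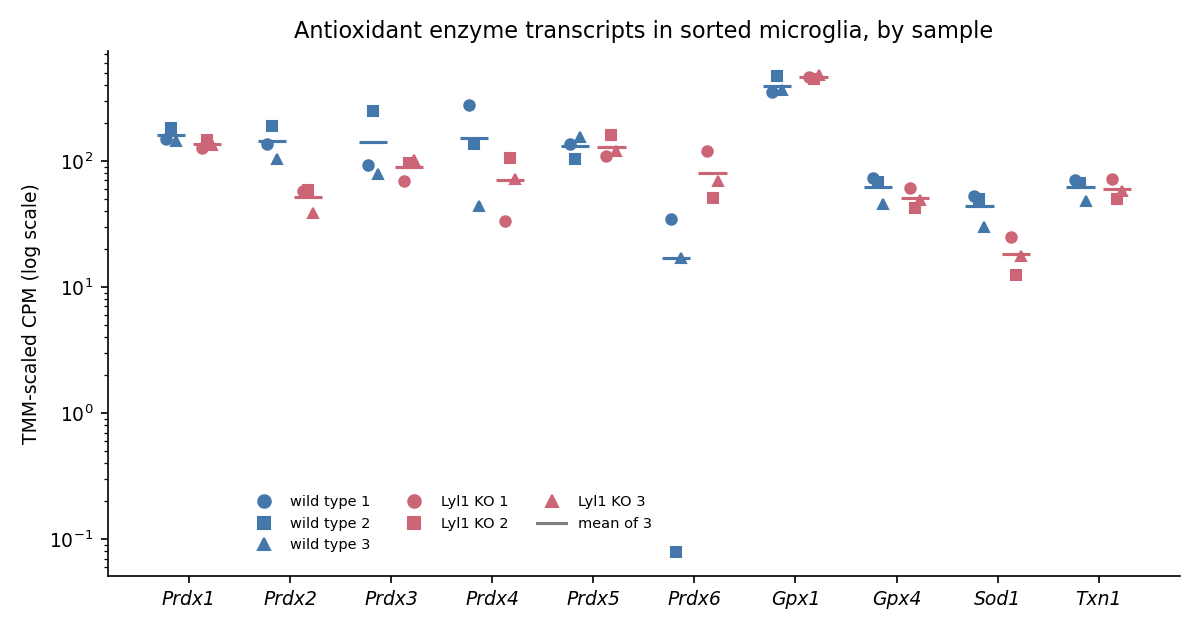
Level of each of the 10 genes in TMM-scaled CPM (log axis) in the 3 wild-type (blue) and 3 Lyl1 KO (red) samples, with symbols for the sample number and lines for the group means. The red points of Prdx2 and Sod1 lie below all blue points, those of Prdx6 lie above, and 1 wild-type point of Prdx6 lies near 0.1 CPM.

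Prdx2 gave the clearest separation. This cytosolic peroxiredoxin measured 137, 189 and 103 CPM in wild-type samples 1 to 3 against 57.3, 58.8 and 38.4 CPM in knockout samples 1 to 3, from 1551, 4757 and 2166 reads against 1302, 1157 and 1103. The lowest wild-type sample was well above the highest knockout sample. Knockout sample 2, the only one of its genotype with Xist as low as wild type, measured 58.8 CPM, and the part of sex was not tested. Means were 143 ± 43.2 and 51.5 ± 11.4 CPM (SD, n = 3 each). The log2 fold change of -1.47 had a standard error of 0.50 and a 95% interval from -2.63 to -0.32, at an unadjusted edgeR p of 0.0191. An exact 2-sided permutation test on log2(CPM + 1) gave p = 0.1, the smallest that 3 against 3 samples allow. Red cells are rich in Prdx2, and the markers of red cells did not go together here. Bpgm, the most abundant on average, measured 0.176, 131 and 18.5 CPM over the wild-type samples against 25.1, 19.5 and 11.1 CPM over the knockout samples. The globin Hbb-bs measured 0.705, 0.0397 and 0.0954 CPM over the wild-type samples against 127, 38.2 and 0.0348 CPM over the knockout samples. Wild-type sample 2 was thus highest for Prdx2 and Bpgm with 1 read of Hbb-bs, and knockout sample 1, highest for Hbb-bs, was low for Prdx2. Without wild-type sample 2 the log2 fold change of Prdx2 was -1.19 at an unadjusted edgeR p of 0.0692. The summed erythrocyte markers overlapped between genotypes (1.41 to 131 CPM in wild type, 11.4 to 252 CPM in knockout). The wild-type maximum, in sample 2, was almost all Bpgm, and the part of red cells was not tested.

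Prdx1, the other cytosolic enzyme of this kind (chromosome 4, 116685544 to 116700822), overlapped. It measured 150.3, 182 and 144 CPM over the wild-type samples against 126, 147 and 133 CPM over the knockout samples, with means of 159 ± 20.4 and 135 ± 10.7 CPM (SD, n = 3 each). Its log2 fold change of -0.23 had a 95% interval from -1.02 to 0.56. Of the 50-base stretches of its main transcript 10.9% also occur in transcripts of other genes. The within-library ratio of Prdx2 to Prdx1 reads, which does not depend on scaling between libraries, was 0.910, 1.04 and 0.717 in wild type and 0.454, 0.400 and 0.289 in knockout. The 2 genotypes did not overlap in this ratio, which was picked after the levels were seen, and the exact 2-sided permutation p was 0.1.

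Prdx2 lies on the same chromosome as the targeted gene. In GRCm38 it spans chromosome 8 from 84969587 to 84974834 on the plus strand (ENSMUSG00000005161.15), starting 264872 bases after the end of Lyl1. Within 1000000 bases of Lyl1, 51 genes were tested, 25 with a negative and 26 with a positive log2 fold change, and their median was 0.06. Of these, 3 genes, Prdx2 among them, were lower in every knockout sample and 4 were higher, beside 5.19% and 5.97% of all tested genes. Prdx2 had the 9th lowest fold change of the 51. Its overlapping neighbour on the opposite strand, the AP-1 subunit Junb, lay the other way, at 888, 953 and 1206 CPM in wild type and 1651, 1552 and 1280 CPM in knockout.

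**Figure D2:**
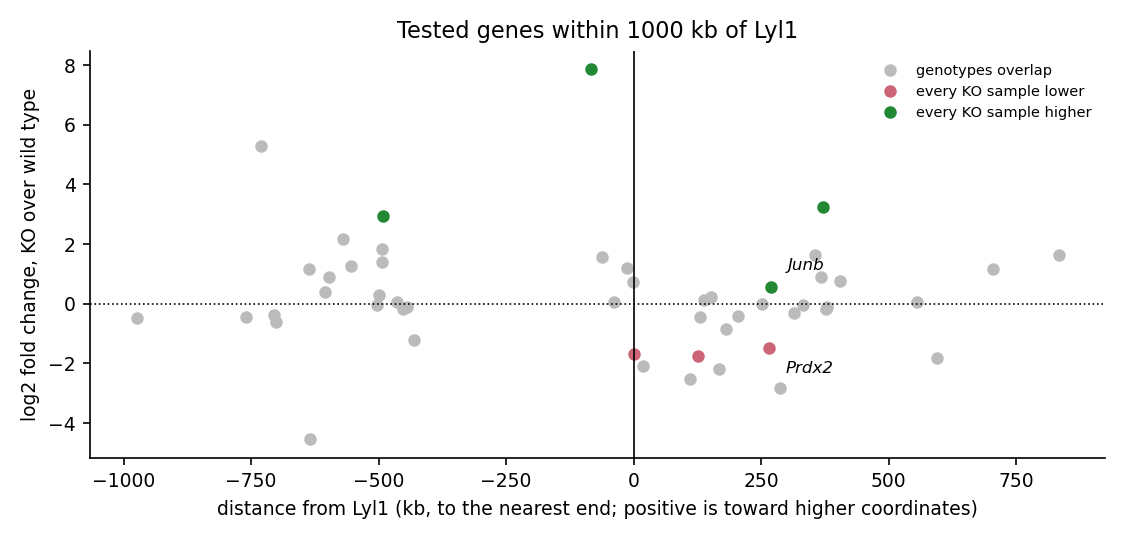
Log2 fold change (knockout over wild type) of the 51 tested genes within 1000 kb of Lyl1 against their distance from Lyl1 in kb, with genes whose genotypes did not overlap in red (knockout lower) or green (knockout higher). Prdx2 at -1.47 and Junb at 0.56 lie next to each other on opposite sides of 0.

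Reads of Prdx2 can be shared with other genes. Its exons have 173 bases in common with Junb and 177 with Rnaseh2a, both on the opposite strand, and the kit does not mark strand. In all, 24.0% of the 50-base stretches of the main Prdx2 transcript also occur in transcripts of other genes. A pseudogene copy on chromosome 1 (99790429 to 99791025), Tdpx-ps1, was identical to the Prdx2 transcript at 575 of 597 aligned bases. It is printed over the same 45 bases as Prdx2 above, with the 2 bases that differ in capitals.
Tdpx-ps1: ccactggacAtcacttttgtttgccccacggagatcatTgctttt
For Tdpx-ps1 the table lists 3, 9 and 6 reads over the wild-type samples against 52, 43 and 44 over the knockout samples, the opposite direction to Prdx2. As a share of the reads of both genes it took 0.193%, 0.189% and 0.276% in wild type and 3.84%, 3.58% and 3.84% in knockout. The knockout samples stood close together and far above wild type in this share (exact 2-sided permutation p = 0.1, the smallest possible), which was computed after the reads were seen. Adding the copy's reads to those of Prdx2 left means of 143 ± 43.2 and 53.5 ± 11.8 CPM (SD, n = 3 each), 2.68-fold lower in knockout. The part of reads assigned to this copy in the Prdx2 difference was otherwise not tested. The count table holds no bases, so whether the Prdx2 transcripts of the genotypes differ in sequence, which could change the reads counted for either gene, was not tested.

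**Figure D3:**
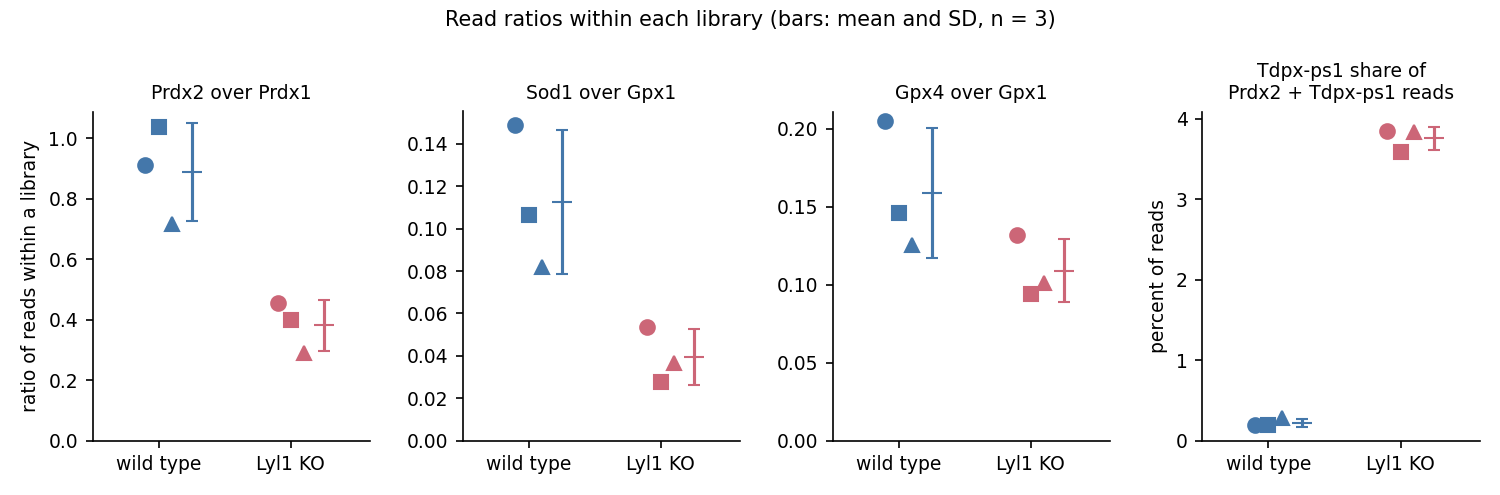
Within-library ratios of reads (Prdx2 to Prdx1, Sod1 to Gpx1, Gpx4 to Gpx1) and, at the right, the percentage of Prdx2 plus Tdpx-ps1 reads counted for Tdpx-ps1, for 3 wild-type (blue) and 3 Lyl1 KO (red) samples with mean and SD. The genotypes overlap only for Gpx4 to Gpx1, and the pseudogene share has group means of 0.219% and 3.75%.

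The organelle peroxiredoxins varied more among wild-type samples than between the genotype means. Prdx3, the mitochondrial enzyme (chromosome 19, 60864051 to 60874556), measured 92.6, 249 and 78.1 CPM over the wild-type samples against 69.7, 95.9 and 101 CPM over the knockout samples. Wild-type sample 2 alone stood high, and without it the log2 fold change moved from -0.65 to 0.08. Prdx4 of the endoplasmic reticulum, an X-linked gene (chromosome X, 155323918 to 155340754), measured 277, 137 and 44.1 CPM over the wild-type samples against 33.4, 105 and 72.2 CPM over the knockout samples. Its wild-type samples spanned a wider range than the difference of the means, 153 ± 117 against 70.3 ± 35.9 CPM (SD, n = 3 each), and without wild-type sample 1 the log2 fold change went from -1.12 to -0.35. Wild-type sample 1 also had the highest summed oligodendrocyte markers (379 CPM against 47.4 to 215 CPM elsewhere) and endothelial markers (179.7 CPM against 27.2 to 61.7 CPM), and the part of such cells was not tested.

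Prdx5 overlapped and Prdx6 did not. Prdx5 (chromosome 19, 6906697 to 6910106) measured 135, 104 and 155 CPM over the wild-type samples against 110.2, 159 and 119.8 CPM over the knockout samples, with a log2 fold change of -0.02 and a 95% interval from -0.94 to 0.90, so a change of somewhat under 2-fold in either direction lies within it. Prdx5 shares 409 exonic bases with Trmt112 on the opposite strand, and 29.7% of the 50-base stretches of its main transcript also occur in transcripts of that gene. Prdx6 (chromosome 1, 161240112 to 161251219) measured 34.3, 0.0795 and 17.0 CPM over the wild-type samples against 119.6, 50.5 and 69.0 CPM over the knockout samples. Wild-type sample 2 had only 2 reads of Prdx6, against 356 to 2717 in the other 5 samples, in the library with the highest Prdx1, Prdx2 and Prdx3. The log2 fold change of 2.22 had a standard error of 1.55 and a 95% interval from -1.38 to 5.82. Without wild-type sample 2 it was 1.67, without wild-type sample 1 it was 3.24, with the replicate number as a block 3.41 and by limma-voom 4.53.

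Gpx1, the most abundant of the 10, overlapped. This cytosolic and mitochondrial glutathione peroxidase (chromosome 9, 108338903 to 108340343) measured 353, 467 and 365 CPM over the wild-type samples against 464, 447 and 483 CPM over the knockout samples. The genotypes overlapped through wild-type sample 2, and the knockout samples had a coefficient of variation of 3.87%, beside a median of 19.8% among 575 genes at 0.5 to 2 times its level. The log2 fold change was 0.23 with a 95% interval from -0.29 to 0.76. Gpx1 made up 30.6 ± 4.86% of the CPM of the 10 genes in wild type and 40.4 ± 2.05% in knockout (SD, n = 3 each).

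Gpx4, which reduces lipid peroxides in membranes and thereby guards against ferroptosis (chromosome 10, 80047166 to 80056439), overlapped as well. It measured 72.5, 68.2 and 45.6 CPM over the wild-type samples against 61.2, 41.98 and 48.7 CPM over the knockout samples, with a log2 fold change of -0.30 and a 95% interval from -1.83 to 1.24. Gpx4 is uncertain, because 68.9% of the 50-base stretches of its main transcript also occur in the pseudogene Gpx4-ps2, and how such reads were counted is not stated. For Gpx1, Prdx3 and Prdx4 that share was 0%.

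Sod1, the cytosolic copper-zinc superoxide dismutase (chromosome 16, 90220754 to 90226329), measured 52.6, 49.7 and 29.9 CPM over the wild-type samples against 24.9, 12.4 and 17.7 CPM over the knockout samples. Wild-type sample 3 came close to knockout sample 1, and knockout sample 2 was the lowest of all. Means were 44.1 ± 12.4 and 18.3 ± 6.28 CPM (SD, n = 3 each), and the log2 fold change was -1.26 with a 95% interval from -3.55 to 1.02, at an unadjusted edgeR p of 0.236. Genes at this level scattered strongly: 4223 genes at 0.5 to 2 times the level of Sod1 had median coefficients of variation of 91.0% (wild type) and 59.1% (knockout), while Sod1 itself had 28.1% and 34.3%. The ratio of Sod1 to Gpx1 reads was 0.149, 0.107 and 0.0819 in wild type and 0.0537, 0.0278 and 0.0367 in knockout. This ratio too was picked after the levels were seen, and its genotypes did not overlap. A pseudogene, Gm8566, shares 23.1% of the 50-base stretches of the main Sod1 transcript and had 0 to 5 reads per sample.

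Txn1, the thioredoxin that recharges the peroxiredoxins (chromosome 4, 57943373 to 57956411), measured 70.3, 66.3 and 48.2 CPM over the wild-type samples against 71.3, 49.7 and 58.1 CPM over the knockout samples. The means of 61.6 ± 11.8 and 59.7 ± 10.9 CPM (SD, n = 3 each) differed by far less than the spread, and the 95% interval of the log2 fold change ran from -1.49 to 1.40.

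**Figure D4:**
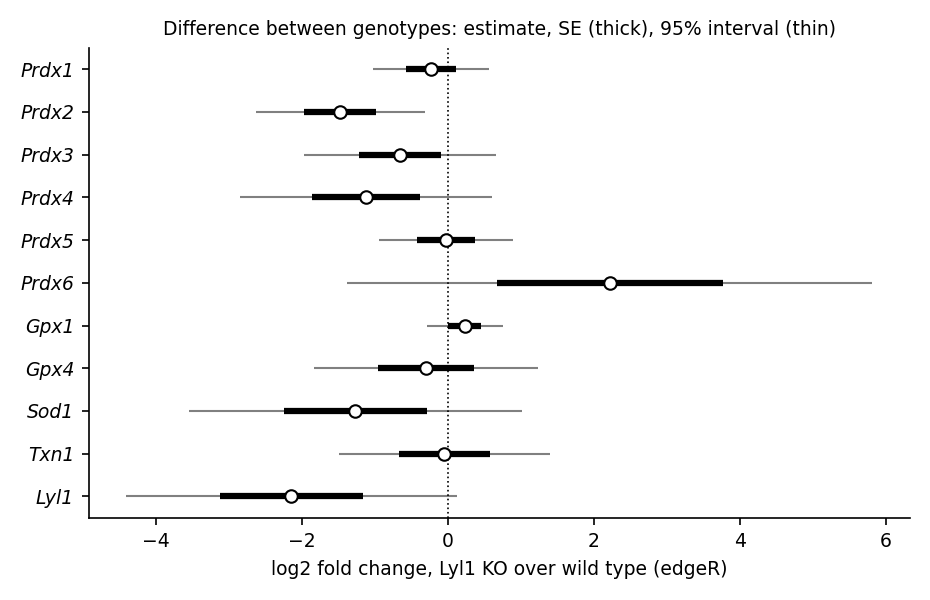
Log2 fold change (knockout over wild type) from edgeR for the 10 genes and Lyl1, with the standard error as a thick line and the 95% interval as a thin line. Only the interval of Prdx2, from -2.63 to -0.32, excludes 0, and that of Lyl1 ends at 0.13.

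Levels of different genes were compared per length, as CPM per kilobase of the main GENCODE transcript. Gpx1 led in both genotypes, at 368 ± 58.3 in wild type and 433 ± 16.7 CPM per kilobase in knockout (SD, n = 3 each), and it also led when the length of all exons together was used. In wild type Prdx4 (154 ± 118), Prdx5 (104 ± 20.5), Prdx2 (95.3 ± 28.8) and Prdx3 (94.6 ± 64.0 CPM per kilobase) followed, and these neighbours did not differ beyond their spread. Prdx1, Sod1, Gpx4 and Txn1 then lay between 58.6 and 69.2 CPM per kilobase, also within their spread, and Prdx6 was lowest at 7.17 ± 7.17. In knockout Prdx2 ranked 8th and Sod1 10th, at 34.3 ± 7.60 and 28.6 ± 9.80 CPM per kilobase. The order below Gpx1 depends on the transcript length taken, since Prdx4 moved from 2nd to 5th over all samples with the length of all exons.

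The 6 peroxiredoxins summed to 826, 861 and 542 CPM in wild type and to 517, 617 and 534 CPM in knockout. Wild-type sample 3 fell among the knockout samples. The sum of all 10 genes had means of 1305 ± 248 CPM for wild type and 1149 ± 16.5 CPM for knockout (SD, n = 3 each), and its range in knockout, 1138 to 1168 CPM, lay within that of wild type. Wild-type samples 1 and 2 were the high samples, with mean standardised levels over the 10 genes of 0.47 and 0.58, against -0.35 in wild-type sample 3 and -0.27 to -0.19 in knockout. The genes whose levels over the 6 samples were most like this mean profile, of 3518 with at least 50 CPM, were Usf1, Kdelr2, Napa, Yaf2 and Ppp1cb, with Pearson's r of 0.979 to 0.996, given as a description over points that share their libraries. Through this choice all 5 were high in wild-type samples 1 and 2. They overlapped between genotypes, as in Usf1 with 147, 168 and 59.0 CPM in wild type and 74.9, 70.5 and 71.8 CPM in knockout.

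None of the other antioxidant genes passed the test either. Of 80 further genes listed for these pathways, 78 were found and 65 were tested, of which 29 had a positive and 36 a negative log2 fold change, with a median of -0.15. None reached an unadjusted p under 0.05 by edgeR, and 8 of 65 separated the genotypes without overlap (4 higher, 4 lower), beside 11.2% of all tested genes.

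Among the partners of peroxiredoxins and thioredoxin, 6 of 13 tested genes had a positive and 7 a negative log2 fold change, and all 13 overlapped between genotypes. Txnip, which binds and inhibits thioredoxin and was the most abundant of them, averaged 1176 ± 278 CPM for wild type and 1038 ± 149 CPM for knockout. Txn2, the mitochondrial thioredoxin, was at 123 ± 49.9 and 64.6 ± 34.6 CPM, and Park7, a redox-sensitive protein, at 185 ± 69.2 and 125 ± 32.2 CPM (SD, n = 3 each). Msrb1, a methionine sulfoxide reductase, measured 0, 8.14 and 6.15 CPM over the wild-type samples against 1.81, 0.762 and 1.63 CPM over the knockout samples.

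Of 18 tested glutathione genes 8 had a positive and 10 a negative log2 fold change, and all 18 overlapped between genotypes. Gclc, the catalytic subunit of the enzyme that starts glutathione synthesis, measured 0.529, 9.53 and 66.7 CPM over the wild-type samples against 83.3, 104.6 and 62.2 CPM over the knockout samples. Its wild-type samples differed from each other by more than the means did. The amino acid transporter subunit Slc3a2 was the most abundant, at 632 ± 159 and 718 ± 244 CPM, while the glutathione transferase Gstm1 and the secreted peroxidase Gpx3 had means of 14.5 CPM or less in both genotypes.

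Among 4 tested genes of superoxide dismutation, catalase and copper supply, the copper chaperone Atox1 did not overlap. It measured 200.2, 226 and 124 CPM over the wild-type samples against 84.3, 112 and 102 CPM over the knockout samples, with an unadjusted edgeR p of 0.0600. Sod2, the mitochondrial dismutase, was at 27.2 ± 18.8 and 32.8 ± 11.0 CPM, and Cat, which breaks down hydrogen peroxide in peroxisomes, at 104 ± 44.3 and 120.4 ± 19.5 CPM (SD, n = 3 each). Sod1 and Atox1 lay lower in knockout and Cat and Sod2 overlapped.

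In the NRF2 pathway and NADPH supply, 7 of 16 tested genes had a positive and 9 a negative log2 fold change, and 3 genes lay higher and 2 lower in every knockout sample than in any wild-type sample, beside 5.97% and 5.19% of all tested genes. Hmox1, the inducible heme oxygenase, measured 0.793, 0.636 and 31.0 CPM over the wild-type samples against 78.4, 81.2 and 34.3 CPM over the knockout samples, so that wild-type sample 3 and knockout sample 3 nearly met. Mafk, a small MAF partner of NRF2, was at 6.63 ± 5.07 and 48.7 ± 30.5 CPM (SD, n = 3 each). G6pdx, which supplies NADPH and is X-linked, lay the other way, at 206, 151 and 127 CPM in wild type and 87.0, 106 and 89.3 CPM in knockout. Fth1, the ferritin heavy chain, was the most abundant at 2052 ± 542 and 1675 ± 449 CPM. Hbb-bs was highest in knockout libraries 1 and 2, those with the highest Hmox1, and at no more than 0.705 CPM in the other 4, and its part was not tested.

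The other selenoproteins and the genes that insert selenocysteine gave 6 positive and 8 negative values of 14 tested. Sepp1, the selenium carrier selenoprotein P, was at 3261 ± 524 and 2913 ± 85.2 CPM (SD, n = 3 each). Selk, a selenoprotein of the endoplasmic reticulum, measured 309, 166 and 167 CPM over the wild-type samples against 139, 121 and 122 CPM over the knockout samples. The levels of Vimp, which also resides there, were 326 ± 41.0 and 229.6 ± 66.2 CPM, and those of Selt 54.0 ± 67.4 and 16.1 ± 12.6 CPM (SD, n = 3 each).

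**Figure D5:**
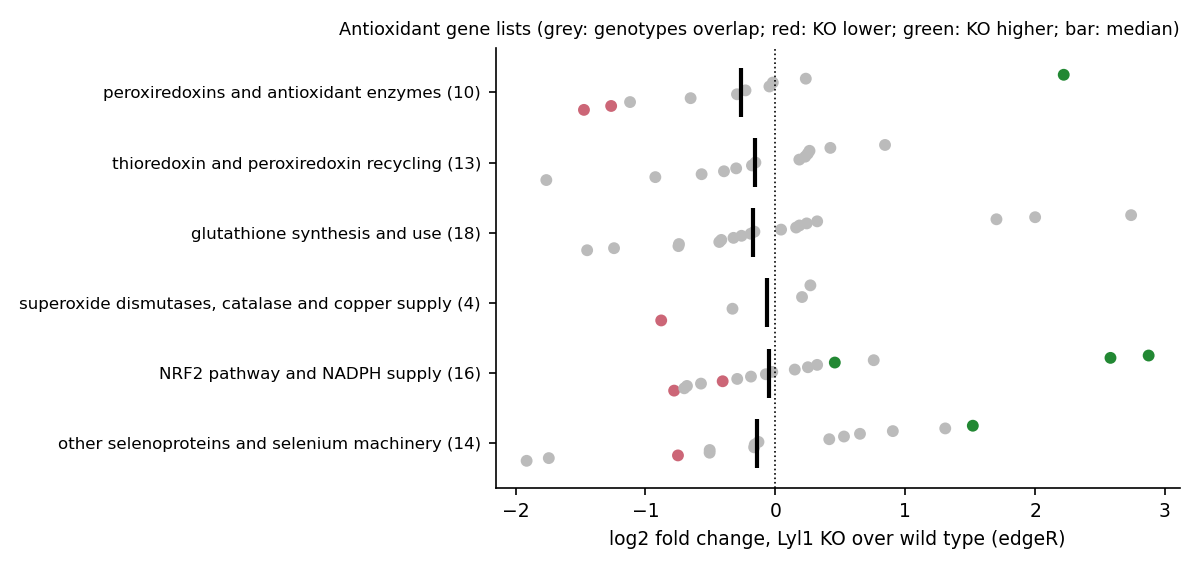
Log2 fold change (knockout over wild type) of the tested genes of each antioxidant list, numbers tested in brackets, with the list median as a bar and colours for genes whose genotypes did not overlap. The medians lie between -0.26 and -0.05, and single genes spread to both sides of 0 in every list.

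Promoters were searched for letters that NRF2 and AP-1 factors are known to bind. A RefSeq window around the start of transcription (GRCm38.p6) was used for 9 of the 10 genes, and Prdx6 was not searched. The core of the antioxidant response element, TGACNNNGC on either strand, occurred in the windows of Prdx1 and Sod1 alone among the 9, and in 12.4% of 32851 windows of all genes. The AP-1 letters TGACTCA, on either strand, occurred in Prdx1, with 2 matches, and in 5.20% of all windows. The 2 windows with the antioxidant core are shown up to the first annotated exon, with matches in capitals, because Sod1 and Prdx1 differed in whether their genotypes overlapped while sharing these letters.
Sod1, plus strand, chr16:90220512-90220753: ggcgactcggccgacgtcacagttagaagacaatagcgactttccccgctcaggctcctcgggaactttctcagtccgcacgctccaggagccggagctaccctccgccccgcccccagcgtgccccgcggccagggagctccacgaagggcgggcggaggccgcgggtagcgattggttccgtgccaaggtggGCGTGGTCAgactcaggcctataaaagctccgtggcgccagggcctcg
Prdx1, plus strand, chr4:116685349-116685543: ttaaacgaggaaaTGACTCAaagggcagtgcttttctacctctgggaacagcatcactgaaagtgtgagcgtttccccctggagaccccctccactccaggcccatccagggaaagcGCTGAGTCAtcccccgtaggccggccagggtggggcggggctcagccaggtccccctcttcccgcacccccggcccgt
In Prdx1 the antioxidant core overlaps the second AP-1 match. These are matches of letters, with no measurement of binding in this series.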

How the data were processed

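Polyadenylated RNA of about 1000 sorted cells per sample was amplified with a SMARTer Ultra Low kit over 14 or 15 cycles, built into Nextera XT libraries and sequenced as single reads of 50 cycles, per the labels' protocols. If reads that are PCR copies were counted separately, errors from counting alone would be too small. The authors deposited raw counts of reads per gene symbol. Tools listed by the submitters' processing notes, with no role given, are STAR 2.5.2b, featureCounts 1.5.1, Subread, CASAVA 1.8.2 and limma 3.28.21, on GRCm38. The sources used here give no annotation, strand setting or treatment of reads with several matches. Of 48679 entries 92 were ERCC spike-ins, which were left out.

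Counts were filtered with edgeR 4.0.16 filterByExpr (minimum count 10, minimum total 15), scaled by TMM and compared by the quasi-likelihood F test in R 4.3.3, 2-sided, with genotype alone, over all 10394 genes, at an adjusted p of 0.05. The standard error is the log2 fold change over the root of F, and its 95% interval uses the fit's degrees of freedom. Replicates differed by far more than sampling noise, so no library was counted double. The test was first tried on simulated data. When replicates scattered as much as the real ones, it detected none or few of the genes given a true difference. These were 0 out of 67 at 2-fold, 1 out of 67 at 4-fold and 4 out of 66 at 8-fold. With a low scatter (dispersion 0.05) it detected 45, 66 and 66 genes in the same order. A gene that was not called here may therefore still differ by these amounts.

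The 10 genes and the lists were chosen with earlier results of these data known. Named genes were the members, Lyl1, up to 3 genes of each list with the smallest p and its most abundant gene, the most abundant marker of each cell type where described, and the 5 genes most like the members' profile. Junb, Rnaseh2a, Tdpx-ps1, Gm8566, Gpx4-ps2, Trmt112, Hbb-bs and Xist were named after their values or sequences were seen. Some items are not reported here. A gene's length is that of its APPRIS principal GENCODE M21 transcript with the best support, the longest where several tie. Positions are those of GENCODE M21. Transcripts were aligned with Biopython 1.88. Alternatives were RLE, upper-quartile and library-size scaling, no filter, a mean of 5 CPM, DESeq2 1.42.0, limma-voom 3.58.1, the replicate block and leaving out each sample.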

Additional observations from a re-analysis of the deposited data

How the results depend on the processing

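Over 14 alternatives no member and no further antioxidant gene was called. Among all tested genes 8 were called with no filter on low counts and 52 by DESeq2, against 0 in the other 12 and by edgeR as reported, where 295 had an unadjusted p under 0.05. Prdx2 stayed negative in all 14, from -1.65 to -1.19, with unadjusted p from 0.0032 to 0.0745 and adjusted p from 0.269 (DESeq2) to 1. Its unadjusted p was above 0.05 with no filter (0.0579), without wild-type sample 2 (0.0692) and without knockout sample 3 (0.0745). Sod1 stayed negative (-1.55 to -1.03) and Prdx6 positive (1.67 to 4.53) in all 14. Prdx6 had an unadjusted p of 0.0480 by limma-voom. The median of the 10 genes ran from -0.38 (without wild-type sample 3) to -0.12 (without wild-type sample 2) when a sample was left out.

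Genes near 0 changed sign. Prdx5 turned to 0.088 with upper-quartile scaling, 0.073 with library size and 0.031 with no filter, and ran from -0.18 to 0.13 over samples left out, above 0 without wild-type sample 1 or 3 or knockout sample 1 or 3. Txn1 turned to 0.12 with upper-quartile scaling, 0.079 with library size, 0.0096 with no filter and 0.00039 with limma-voom, and ran from -0.19 to 0.091 over samples left out, above 0 without wild-type sample 1 or 2 or knockout sample 2. Prdx3 ran from -0.93 to 0.085 over samples left out, above 0 only without wild-type sample 2. The cause was not tested. Upper-quartile scaling moved the median log2 fold change of all genes from -0.03 to 0.09.

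The labels number the samples 1 to 3 in both genotypes. Deviations of same-numbered samples correlated at 0.00138, -0.0132 and -0.0403 over 6523 genes, and 1 of 6 samples correlated best with its own number, so the numbers were not taken as pairs. With the replicate block 0 genes were called, the median of the 10 genes was -0.25 and Prdx2 was at -1.46. A count of 0 in a library allows 3 reads, which is 0.104 to 0.264 CPM and covers counting error only. All 10 genes had more reads than that in every library except Prdx6 in wild-type sample 2.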
